A study of Mus musculus with 12 samples.

Results

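The last step of reprogramming was followed from mouse embryonic fibroblasts (MEF) late under doxycycline (DOX) to established induced pluripotent stem cells (iPSC). It covers 4 of the 12 arrays of the series, 2 of late DOX cells and 2 of iPSC, paired by genotype. The arrays were picked by their labels, as the iPSC array and the latest DOX array of each genotype that has both. WT cells (Mbd3+/+) were taken 11 days after DOX was added and as iPSC. Cells labelled Mbd3flox/- (flox/- below), with 1 floxed and 1 deleted copy of Mbd3, were taken 8 days after DOX was added and as iPSC. All 4 carried a DOX-inducible transgene for Oct4, Sox2, Klf4 and Myc (OSKM), and the labels do not say whether DOX was still given to the iPSC. The cells were kept in ESC medium with 2 inhibitors and LIF (2i/LIF) on irradiated DR4 feeder fibroblasts, so RNA of feeder cells can be in any sample. For orientation, values of the MEF and day 4 arrays of both genotypes and of 2 embryonic stem cell (ESC) arrays, WT and Mbd3-/-, whose labels name no OSKM transgene, are given beside them. There was 1 array for each stage of a genotype. The day also differs between the genotypes at late DOX, so genotype, day and culture cannot be told apart there. A WT array titled as day 8 was left out of the step, because another of its labels gives day 4. It was at 5.59 of Nanog, the pluripotency factor, near the MEF. The labels do not say whether the late DOX cells and the iPSC of a genotype came from the same embryo or line.

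Reprogramming factors switch off the fibroblast programme, bring on an epithelial state and then switch on the network of Oct4, Sox2 and Nanog. Cells late under DOX can already express that network while they still depend on the transgene, and an established line keeps it going from its own genes. Mbd3 is a subunit of the NuRD complex, which joins nucleosome remodelling to histone deacetylation. Genes of germ cells are known to be held silent in somatic cells by DNA methylation at their promoters and by Polycomb-type repressors, and in mouse ESC many of them are open to partial expression, more so in 2i.

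The deposited array values are log2 signals, a scale on which 1 unit is a 2-fold difference. After quantile normalization the median of each array was 6.31 and its lower quartile 4.68, and signals near the latter are at background. Of 19938 genes, 13044 were above the median on at least 1 array and were kept. The last step was tested with limma as iPSC minus late DOX, with stage and genotype as terms, over the 8 arrays of both genotypes at MEF, day 4, late DOX and iPSC.

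The arrays fitted their labels as pluripotent or nearly pluripotent cells. The mean of 7 pluripotency markers (Nanog, Esrrb, Zfp42, Dppa5a, Tdgf1, Utf1 and Nr0b1) was 10.85 in WT day 11, 11.86 in flox/- day 8, 11.61 in WT iPSC and 11.81 in flox/- iPSC, against 4.83 and 4.89 in the MEF. Nanog alone was at 12.31, 12.55, 12.55 and 12.70 in the same order, so it was near its iPSC level at late DOX in both genotypes. The mean of 7 fibroblast markers (Col1a1, Col1a2, Col3a1, Thy1, Pdgfra, Pdgfrb and Postn) was 9.88 in WT day 11 and 9.18 in WT iPSC, but 6.42 in flox/- day 8 and 6.68 in flox/- iPSC. It was 8.87 in WT ESC and 8.06 in Mbd3-/- ESC, so WT iPSC stood near WT ESC and the flox/- pair below both ESC arrays. The mean of 7 macrophage markers was also higher in the WT pair, at 6.54 and 6.77, than in the flox/- pair, at 5.09 and 5.10. In bulk RNA, fewer cells of a type and less RNA per cell cannot be told apart. The Y-linked gene Eif2s3y was at 8.34 in WT day 11 and 5.02 in WT iPSC, and at 10.70 and 9.78 in the flox/- pair. Xist, the RNA that coats the inactive X chromosome, was at 8.52 and 9.79 in the WT pair and at 8.91 and 7.15 in the flox/- pair. Kdm5d and Usp9y, both Y-linked, were at least 2-fold lower in iPSC in both genotypes. The arrays within each pair thus stood apart in sex-linked signal, and the results on X- and Y-linked genes below rest on pairs that differ in this way.

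Few genes were apart in both genotypes. By limma with Benjamini-Hochberg adjustment, 1 of 13044 genes (0.00767%) was called lower in iPSC at an adjusted p under 0.05 and 0 (0%) were called higher. At an unadjusted p under 0.05 there were 559 of the 13044 genes, 332 of them higher and 227 lower. That is a smaller share than the 0.05 that such a cut passes where nothing differs. As a description with no test, 54 genes (0.414% of those kept) were at least 2-fold higher in iPSC in both genotypes and 51 (0.391%) were at least 2-fold lower in both. Without X- and Y-linked genes the counts were 49 and 41. The levels of both iPSC arrays lay above those of both late DOX arrays for 2356 genes (18.1%) and below them for 1609 (12.3%). Of the 54 and 51 genes, 47 and 44 were separated in this way. At the edge of the rule, the smaller of both log2 differences was 1.01 in Smarcd3 (higher) and Ap1m2 (lower), which were admitted. It was 0.9993 in Myo5c and 0.999 in Egr1, which were not.

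More genes were 2-fold apart in the WT step than in the flox/- step. Between WT day 11 and WT iPSC 418 genes (3.2%) were at least 2-fold higher in iPSC and 772 (5.92%) at least 2-fold lower, 1190 in all. Between flox/- day 8 and flox/- iPSC the counts were 237 (1.82%) and 113 (0.866%), 350 in all. For comparison, 553 genes were at least 2-fold apart between WT iPSC and WT ESC, 662 between both iPSC arrays, and 1880 between both late DOX arrays. The flox/- cells at day 8 were thus closer to their iPSC in this count than the WT iPSC were to the WT ESC. Across genes the steps of both genotypes had a Pearson r of 0.20 and a Spearman rho of 0.10, a description over 13044 genes that share arrays and are not independent.

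**Figure D1:**
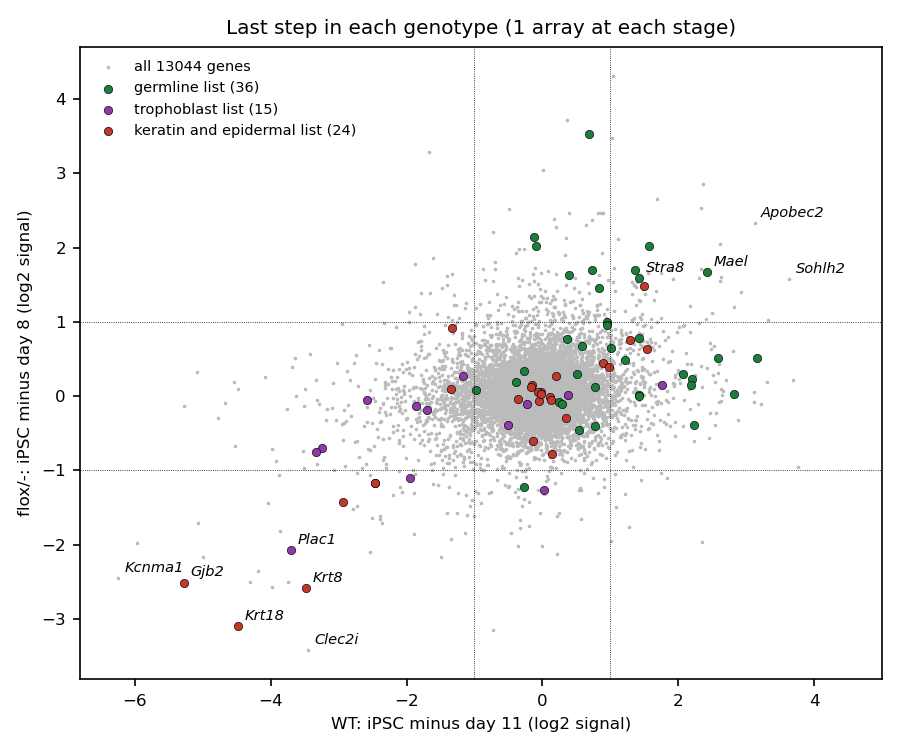
Difference between iPSC and late DOX in log2 signal in WT cells (horizontal axis) and flox/- cells (vertical axis), 1 point per gene, with the germline, trophoblast and keratin lists in colour and dotted lines at a 2-fold difference. The cloud is wider along the WT axis, Clec2i and Krt18 lie at the lower left with similar distances in both genotypes, and the germline genes lie mostly to the right of and above 0.

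Genes at least 2-fold higher in iPSC in both genotypes were mostly below the array median, 6.31, in fibroblasts. Their median level was 5.38 and 5.32 in WT and flox/- MEF, 5.96 in WT day 11, 6.98 in flox/- day 8, 7.57 in WT iPSC and 8.67 in flox/- iPSC. Of the 54 genes, 28 were within 2-fold of MEF at late DOX, 19 were already above it and 7 were below it. At late DOX the flox/- array was the higher one for 45 of the 54 genes, by at least 2-fold for 23. As the late DOX levels were part of the choice of genes, these counts are a description, without a share over all genes. The median fold was 2.86, from 2.15 to 6.62.

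Apobec2, a relative of the cytidine deaminases, had the highest mean difference. It was at 5.80 in WT day 11 and 6.58 in flox/- day 8, and at 8.92 and 8.91 in the iPSC, after 4.96 in both MEF arrays and with 7.28 and 7.26 in WT and Mbd3-/- ESC. The iPSC arrays thus lay above both late DOX arrays and above both ESC arrays, at 6.62 times the late DOX signal (adjusted p = 0.362 by limma). H2ac1, a histone H2A known from testis and oocytes, was at 8.53 and 8.70 at late DOX and at 11.15 and 10.74 in iPSC, which is 5.02-fold (adjusted p = 0.362 by limma). Elovl2, an elongase of polyunsaturated fatty acids, was at 4.58 and 5.62 at late DOX and at 7.19 and 7.17 in iPSC. Hal, the first enzyme of histidine breakdown, was at 5.61 in WT day 11 but 8.58 in flox/- day 8, and at 8.93 and 9.60 in iPSC. WT day 11 was thus the low one, and flox/- day 8 lay close to WT iPSC and 2.03-fold below flox/- iPSC. Igsf21, an immunoglobulin-family adhesion protein, also had its lowest of the 4 levels in WT day 11, with 5.40 and 7.36 at late DOX and 8.33 and 8.76 in iPSC.

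Several of the 12 genes furthest apart are known for expression in germ cells. Sohlh2, a basic helix-loop-helix factor of early spermatogonia and oocytes, was at 5.60 in WT day 11, 8.79 in flox/- day 8, 9.24 in WT iPSC and 10.37 in flox/- iPSC. Usp26, an X-linked ubiquitin protease of testis, was at 4.81, 5.55, 5.83 and 9.03 in the same order, so only the flox/- iPSC stood high. It was at 11.09 in Mbd3-/- ESC and 4.40 in WT ESC. Nxf3, an X-linked RNA export factor, was at 4.62, 7.99, 7.26 and 9.58, so the late DOX and iPSC arrays overlapped. The remaining members of the 12 were the lens crystallin Crygd, the muscle protein nebulin (Neb) and the uncharacterised Gm5662 and 4930591A17Rik, with mean differences from 2.17 to 2.68. Gm5662 was at 5.03 in WT iPSC and 8.40 in flox/- iPSC, after 3.98 and 4.08 at late DOX, both below the lower quartile, and was by the same quartile at least 4.08-fold higher.

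**Figure D2:**
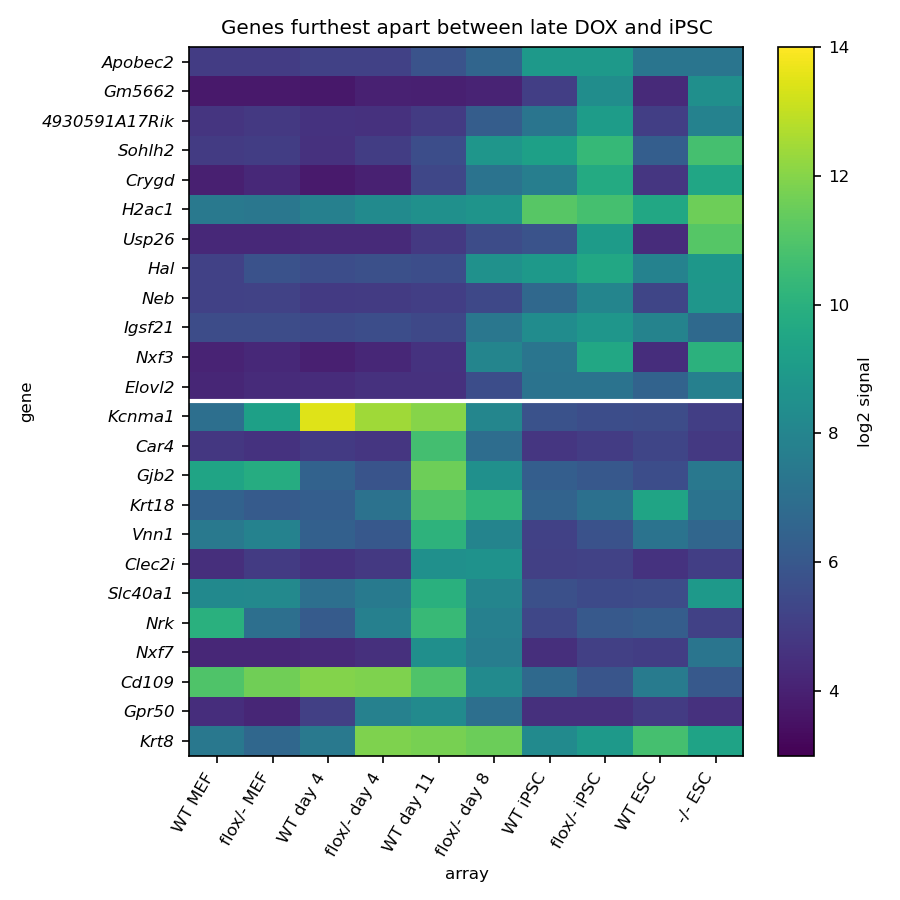
Log2 signal (colour) of the 12 genes with the highest and the 12 with the lowest mean difference among those at least 2-fold apart in both genotypes (rows) in 10 arrays (columns), with a white line between both groups. Most of the upper genes are darkest in MEF and at day 4 and brighter in iPSC and in Mbd3-/- ESC, and most of the lower genes are brightest at late DOX, WT day 11 above all. The order of late DOX and iPSC was fixed by the choice of genes.

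The germline list held 36 kept genes, of 46 measured, and had the highest median difference of the 33 lists, 0.96, against 0.02 over all genes. A gene low in MEF could be kept through iPSC or ESC arrays alone, so the filter can favour higher iPSC values in this list. The members not kept are in none of its counts or medians, and their effect was not tested. By genotype the medians were 0.89 in WT and 0.50 in flox/- cells. The median was 0.47 without WT day 11 and 0.61 without flox/- iPSC. The median level of the list was 5.29 in WT day 11 and 6.65 in WT iPSC, and 6.64 and 7.40 in the flox/- pair. It was 5.72 in WT ESC, below both iPSC arrays, and 8.15 in Mbd3-/- ESC, above them. In WT 16 of the 36 were at least 2-fold higher in iPSC (against 3.2% of all genes) and 0 lower, and in flox/- cells 11 were higher (against 1.82%) and 1 lower, Dnmt3l. In both genotypes 4 of the 36 were at least 2-fold higher (against 0.414% of all genes), Mael, Sycp1, Meioc and Stra8. By any amount 24 were higher in both, against 30.7% of all genes. Both iPSC arrays lay above both late DOX arrays for 11 of the 36, against 18.1% of all genes. None of the 36 was called by limma. An unadjusted p under 0.05 was found for 11, 10 of them higher, against 559 and 332 of all 13044 genes.

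The promoters of the 4 genes are shown with that of Clec2i, the gene called lower, because they carry the motifs that germline promoters are known for to different extents. They are the 250 bases before the transcript start listed first for each gene in RefSeq (GRCm38.p6), on the strand of the gene. That start need not be the outermost one. Capitals mark CACGTG, the E-box read by Max-type factors, and TCCCGC or its complement GCGGGA, the core of the site read by E2F6.
Mael: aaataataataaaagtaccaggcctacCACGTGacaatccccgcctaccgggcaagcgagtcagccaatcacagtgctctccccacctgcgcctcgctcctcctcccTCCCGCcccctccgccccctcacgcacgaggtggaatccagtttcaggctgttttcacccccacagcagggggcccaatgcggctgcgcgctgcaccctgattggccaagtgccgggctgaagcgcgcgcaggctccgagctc
Sycp1: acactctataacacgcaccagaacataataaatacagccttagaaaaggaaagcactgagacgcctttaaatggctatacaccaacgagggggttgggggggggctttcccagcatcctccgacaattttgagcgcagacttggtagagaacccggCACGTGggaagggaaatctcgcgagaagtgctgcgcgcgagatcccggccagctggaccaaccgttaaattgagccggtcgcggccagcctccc
Meioc: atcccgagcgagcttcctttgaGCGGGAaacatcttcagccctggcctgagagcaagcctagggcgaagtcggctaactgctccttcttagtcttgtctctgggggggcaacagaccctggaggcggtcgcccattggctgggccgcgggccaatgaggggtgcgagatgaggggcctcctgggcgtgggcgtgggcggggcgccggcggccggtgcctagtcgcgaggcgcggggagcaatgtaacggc
Stra8: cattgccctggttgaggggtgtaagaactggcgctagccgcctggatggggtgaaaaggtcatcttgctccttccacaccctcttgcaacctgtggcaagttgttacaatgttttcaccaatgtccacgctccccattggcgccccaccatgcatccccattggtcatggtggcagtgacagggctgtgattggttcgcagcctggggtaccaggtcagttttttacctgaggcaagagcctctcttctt
Clec2i: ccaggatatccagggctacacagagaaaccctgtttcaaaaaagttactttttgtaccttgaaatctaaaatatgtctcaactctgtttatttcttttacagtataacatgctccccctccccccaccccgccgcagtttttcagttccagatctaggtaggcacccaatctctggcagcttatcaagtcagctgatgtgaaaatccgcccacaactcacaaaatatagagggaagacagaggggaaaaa

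Mael lies at chr1:166238745-166238994 on the minus strand in this window, Sycp1 at chr3:102936101-102936350 on the minus strand, Meioc at chr11:102665335-102665584 on the plus strand, Stra8 at chr6:34920698-34920947 on the plus strand and Clec2i at chr6:128887337-128887586 on the plus strand. The Stra8 gene begins at 34920163 and Meioc at 102665351, so their windows lie inside the gene, that of Meioc but for its first bases. For these genes the motif and CpG counts do not describe sequence before the outermost start. The Mael window held 1 CACGTG and 1 TCCCGC, that of Sycp1 1 CACGTG, that of Meioc 1 TCCCGC, and those of Stra8 and Clec2i neither. CpG pairs numbered 18 in Mael, 17 in Sycp1, 22 in Meioc, 5 in Stra8 and 3 in Clec2i, with a median of 16 over the kept genes. A promoter was listed for 32 of the 36 germline genes, and 11 of these (34.4%) held CACGTG on either strand, among them Ddx4, Hormad1, Stag3 and Sycp3. Over the 10357 kept genes with a promoter the share was 9.96%, and over all 27025 genes in the promoter table it was 6.86%. TCCCGC was in 43.8% of the germline promoters, 33.9% of those of kept genes and 18.8% of all. Among the genes at least 2-fold higher in both genotypes 5 of 42 (11.9%) held CACGTG, and among those lower 1 of 43 (2.33%). TCCCGC was in 4 of the 42 (9.52%) and 7 of the 43 (16.3%), below its share in kept genes for both sets. The list was written from knowledge of such genes and with earlier results of these data known, and a match of letters is not a bound site.

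Mael, Sycp1, Meioc and Stra8 act at different points of germ-cell development. Mael, which protects the germline from transposons with the piRNA pathway, was at 4.89 in WT day 11, 6.48 in flox/- day 8, 7.32 in WT iPSC and 8.15 in flox/- iPSC. Sycp1, the transverse filament of the synaptonemal complex, was at 4.38, 5.41, 5.74 and 7.10 in the same order. Meioc, which keeps the meiotic programme of transcripts going, was at 4.42, 5.78, 5.99 and 7.81. In each of the 3 genes the flox/- array was above the WT array at both stages, and both iPSC arrays were above both late DOX arrays. Stra8, the retinoic-acid response gene that starts meiosis, was at 4.10 and 4.25 at late DOX, no higher than the 4.21 and 4.39 of the MEF, and at 5.53 and 5.83 in iPSC. Both late DOX arrays were below the lower quartile of signals, so the measured 2.84-fold (adjusted p = 0.362 by limma) is no exact size. With these arrays set to that quartile, Stra8 was at least 1.997-fold higher in iPSC. In WT and Mbd3-/- ESC Mael was at 7.31 and 6.77, Sycp1 at 4.96 and 8.06, Meioc at 5.63 and 8.30, and Stra8 at 4.53 and 7.44.

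Other germline genes had reached their iPSC level in flox/- cells at day 8. Dazl, an RNA-binding protein of germ cells, was at 6.63 in WT day 11 and 8.84 in WT iPSC, but at 10.36 and 10.60 in the flox/- pair. Rnf17, a Tudor protein of germ granules, was at 6.40 and 9.21 in the WT pair and 9.90 and 9.92 in the flox/- pair. Tex14, needed for the bridges between germ cells, was at 5.83 and 8.99 in WT and 7.95 and 8.46 in flox/-. In Dazl and Rnf17 WT iPSC stood below flox/- day 8, and in Tex14 WT iPSC was the highest of the 4 arrays. Asz1, a mitochondrial piRNA-pathway protein, showed the opposite order, with 4.12 and 4.80 in WT and 4.60 and 8.13 in flox/-. Dnmt3l, the cofactor of the de novo DNA methyltransferases, was the only member at least 2-fold lower in a genotype, at 7.79 and 7.52 in WT and 8.71 and 7.48 in flox/-. It was at 10.92 in WT ESC and 9.95 in Mbd3-/- ESC, above all 4 arrays.

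**Figure D3:**
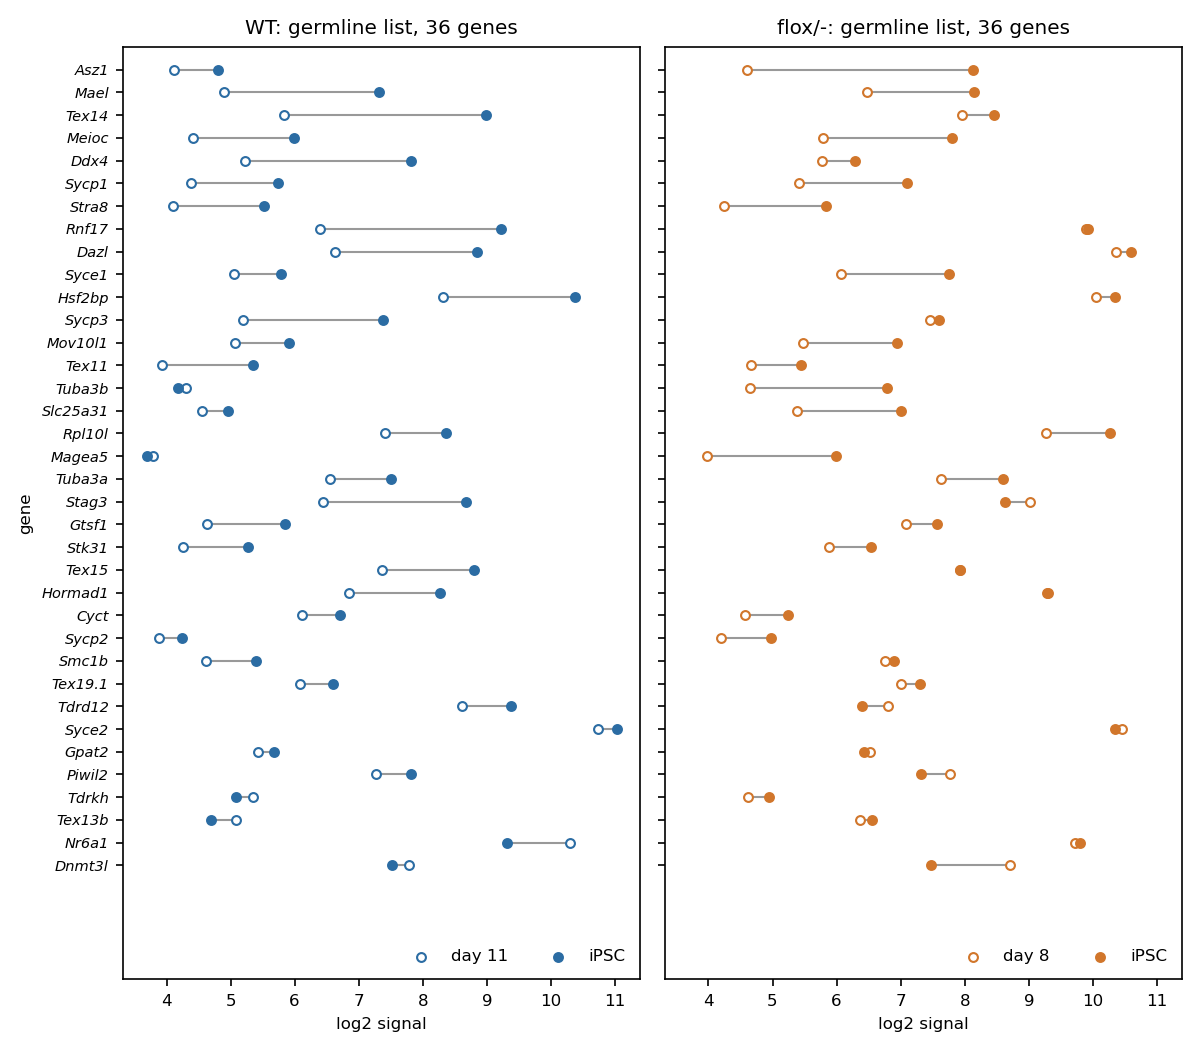
Log2 signal of the 36 kept genes of the germline list at late DOX (open circles) and in iPSC (filled circles), WT on the left and flox/- on the right, ordered by the mean difference. Mael, Sycp1, Meioc and Stra8 move to the right in both panels, while Dazl and Rnf17 are already near their iPSC level at day 8 in flox/- cells.

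Of the genes at least 2-fold lower in iPSC in both genotypes, most stood above their MEF level late under DOX. Their median level was 6.63 and 6.85 in WT and flox/- MEF, 9.15 in WT day 11, 7.91 in flox/- day 8, 6.15 in WT iPSC and 5.92 in flox/- iPSC, with 6.36 and 6.37 in WT and Mbd3-/- ESC. Of the 51 genes, 32 were at least 2-fold above MEF at late DOX, 11 were within 2-fold of it and 8 were below it. WT day 11 was at least 2-fold above flox/- day 8 for 28 of the 51, and the WT step was the larger one for 40. The choice of genes fixes part of these levels and counts, and the shares over all genes were not counted. Over all genes the WT step was also the wider one, with an SD of 0.64 against 0.39 in flox/- cells. The median fold was 3.66, from 2.25 to 20.4.

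**Figure D4:**
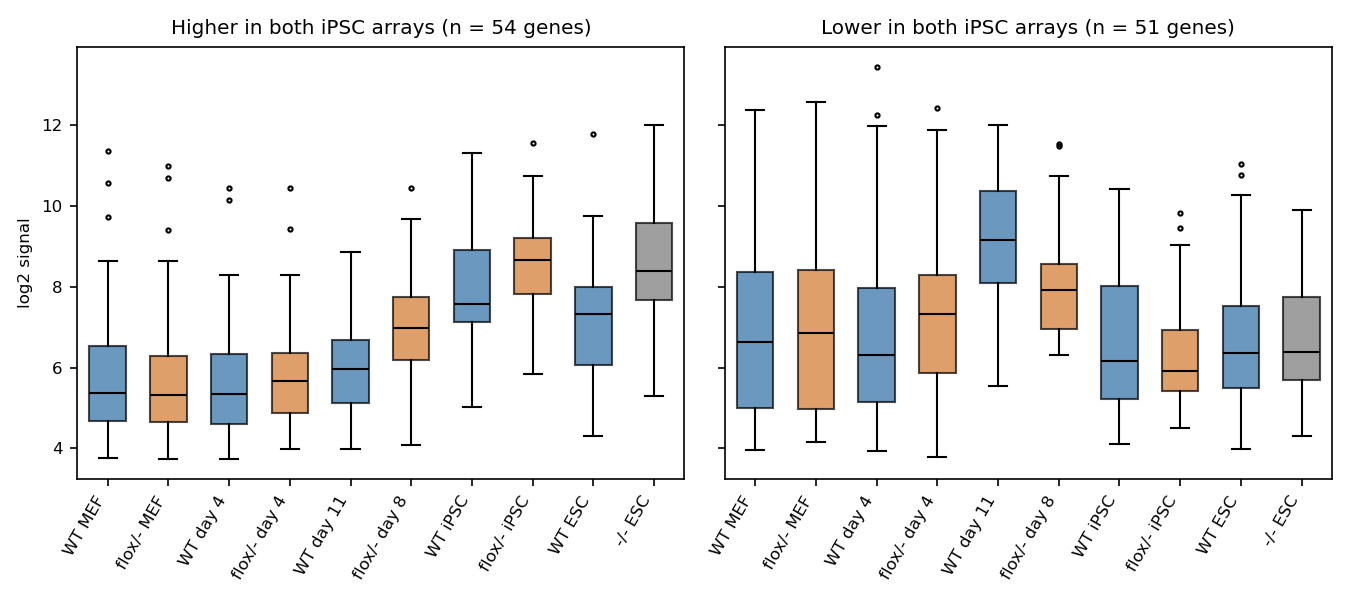
Log2 signal in 10 arrays of the 54 genes at least 2-fold higher (left) and the 51 at least 2-fold lower (right) in iPSC in both genotypes, as boxes from the lower to the upper quartile with the median as a line, whiskers up to 1.5 times the box height and points beyond; WT in blue, flox/- in orange, Mbd3-/- in grey. The late DOX and iPSC boxes were fixed by the choice of genes. On the left the ESC medians are 7.33 and 8.38, above both MEF arrays, and on the right the MEF and ESC medians lie below those of late DOX.

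Clec2i was the gene called by limma. It encodes a C-type lectin-like membrane protein that natural killer receptors bind. It was at 4.48 and 4.92 in WT and flox/- MEF, 4.60 and 4.83 at day 4, 8.52 in WT day 11, 8.59 in flox/- day 8, 5.07 in WT iPSC and 5.17 in flox/- iPSC. Both late DOX arrays were high, and the MEF, day 4, iPSC and ESC arrays were all low. The fall was 10.8-fold, with a log2 difference of -3.44 ± 0.17 SE and an adjusted p of 0.0457. It was no longer called when any 1 of the 8 arrays was left out (adjusted p from 0.089 to 0.9991), and neither with the 4 late DOX and iPSC arrays alone (0.874), with arrays centred on their medians (0.0635) or with an intensity trend (0.073).

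Keratins of simple epithelia were among the genes furthest apart. Krt8 was at 7.41 and 6.66 in MEF, 11.73 in WT day 11, 11.53 in flox/- day 8, 8.25 in WT iPSC and 8.94 in flox/- iPSC. Its partner Krt18 was at 6.45 and 6.18 in MEF, 10.98 and 10.18 at late DOX, and 6.50 and 7.08 in iPSC, which is 13.8-fold lower (adjusted p = 0.422 by limma). Both were high in both late DOX arrays and lower in both iPSC arrays. WT ESC had 10.76 of Krt8 and 9.42 of Krt18, and Mbd3-/- ESC 9.38 and 7.18. Krt19 was at 9.09 and 7.31 at late DOX and 6.15 and 5.89 in iPSC, and Krt7 at 9.38 and 7.59 and then 6.92 and 6.41. Gjb2, the gap junction protein connexin 26, was at 11.56 and 8.52 at late DOX and 6.28 and 6.01 in iPSC, and in MEF at 9.41 and 9.82. In the keratin and epidermal list 5 of 24 kept genes (Gjb2, Krt18, Krt8, Krt19 and Krt7) were at least 2-fold lower in both genotypes, against 0.391% of all genes. Krt42 was at least 2-fold higher in both, at 5.73 and 5.99 and then 7.22 and 7.47. Members of stratified epithelium such as Krt16 and Dsg3 were between 4.20 and 4.80 on all 4 arrays, near background. The median of the list was -0.01, and from -0.32 (without flox/- day 8) to 0.19 (without flox/- iPSC).

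Junction and adhesion genes of epithelia were lower in iPSC in part. Of 35 kept genes 5 were at least 2-fold lower in both genotypes (against 0.391% of all genes) and 0 higher. By any amount 21 were lower in both (against 22.8%), and both iPSC arrays lay below both late DOX arrays for 11 (against 12.3%). The median was -0.51, with -0.41 in WT and -0.17 in flox/- cells. It was -0.026 without WT day 11, -0.13 without flox/- iPSC, -0.79 without WT iPSC and -0.90 without flox/- day 8. Cldn6, a tight junction claudin, was at 11.82 in WT day 11, 9.56 in flox/- day 8, 9.28 in WT iPSC and 7.46 in flox/- iPSC. Esrp1, a splicing regulator of epithelial cells, was at 9.52, 6.40, 6.73 and 4.88 in the same order. For both genes WT iPSC was close to flox/- day 8. Prss8, a membrane serine protease, was at 9.71, 8.54, 8.22 and 6.37. Cdh1, the epithelial cadherin that pluripotent cells also need, was at 11.37, 11.19, 11.57 and 11.02, with no pair of the 4 arrays 2-fold apart.

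Genes of trophoblast, the lineage of the placenta, also stood lower in iPSC. In this list of 15 kept genes the median was -0.94, with -1.69 in WT and -0.19 in flox/- cells. It was -0.26 without WT day 11 and -1.70 without flox/- day 8. In WT 9 of the 15 were at least 2-fold lower (against 5.92% of all genes) and in flox/- 4 (against 0.866%). In both genotypes 3 were so (against 0.391%), Plac1, Krt7 (which is also in the keratin list) and Syna. Both iPSC arrays lay below both late DOX arrays for 10 of the 15, against 12.3% of all genes. Plac1, an X-linked placental protein, was at 5.13 and 4.76 in MEF, 8.48 and 6.99 at late DOX and 4.78 and 4.91 in iPSC. Rhox9, an X-linked homeobox gene, was at 9.77 and 8.18 at late DOX and 6.44 and 7.43 in iPSC. Peg10, an imprinted retrotransposon-derived gene, was at 12.88 and 12.60 at late DOX and 9.63 and 11.91 in iPSC. The regulators did not share one direction: Gata3 was at 7.14 and 6.50 and then 5.45 and 6.31, while Eomes was at 6.25 and 7.81 and then 8.01 and 7.96.

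Other genes of the 12 furthest below were of mixed kinds. Kcnma1, the pore of a large-conductance potassium channel, was at 7.03 and 9.24 in MEF, 13.45 and 12.42 at day 4, 12.0006 and 8.06 at late DOX, and 5.75 and 5.61 in iPSC. It was thus highest early under DOX, and flox/- day 8 was well below WT day 11. Car4, a membrane carbonic anhydrase, was at 10.69 and 6.93 at late DOX and 4.72 and 4.94 in iPSC. Slc40a1, the iron exporter ferroportin, was at 9.99 and 7.98 and then 5.68 and 5.48. Vnn1, a pantetheinase, was at 10.12 and 7.96 and then 5.12 and 5.79. For these 3 genes, as for Gjb2, the WT array was at least 2-fold above the flox/- array at late DOX while the iPSC arrays were near each other. Cd109, a co-receptor for TGF-beta, was at 10.96 and 11.62 in MEF, 10.97 and 8.27 at late DOX and 6.78 and 5.92 in iPSC. Nrk and Nxf7 on the X chromosome had mean differences of -3.39 and -3.27, with Nxf7 in WT iPSC below the lower quartile. Gpr50, also X-linked, was at 8.26 and 7.03 at late DOX and below the lower quartile in both iPSC arrays, which puts it at least 7.78-fold lower. The Y-linked genes Zfy1, Kdm5d and Usp9y were also among the 51, beside the Eif2s3y values above.

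The reprogramming factors themselves, whose signal can hold transcripts of the transgene as well as of the cell's own genes, differed little in the flox/- step. Pou5f1 (Oct4) was at 11.97 in WT day 11, 12.12 in flox/- day 8, 12.08 in WT iPSC and 12.18 in flox/- iPSC. Sox2 was at 11.91, 12.46, 12.42 and 12.45, and Klf4 at 9.51, 10.46, 10.16 and 10.08. Myc was at 10.26 in WT day 11 and at 8.21, 7.97 and 8.18 on the other arrays, after 9.35 and 9.56 in WT and flox/- MEF, so WT day 11 alone of the 4 stood high. Mbd3 was at 9.49 and 9.21 in the WT pair and at 8.85 and 8.73 in the flox/- pair. In the NuRD list of 15 genes 0 were at least 2-fold apart in either genotype, against 9.12% of all genes in WT and 2.68% in flox/- cells.

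Most pluripotency genes were within 2-fold of their iPSC level at late DOX, more of them in flox/- than in WT cells, and so were all genes. Over all genes 9.12% were at least 2-fold apart in WT and 2.68% in flox/- cells. The share in the list was not below this in either genotype, so it was no closer to iPSC than other genes. Of 47 kept genes 0 were at least 2-fold higher in iPSC in both genotypes and 1 was lower, Esrp1, which is in the epithelial list too. In WT 9 of the 47 were at least 2-fold higher in iPSC (against 3.2% of all genes) and 3 lower (against 5.92%). In flox/- cells 0 were higher (against 1.82%) and 2 lower (against 0.866%). The medians were 0.49 in WT and -0.01 in flox/- cells, against 0.01 and 0.04 over all genes. The median of both was 0.21, and 0.056 without WT day 11, 0.094 without WT iPSC, 0.35 without flox/- iPSC and 0.43 without flox/- day 8. Zfp42 (Rex1), a late marker of naive cells, was at 6.67 in WT day 11, 10.07 in flox/- day 8, 8.85 in WT iPSC and 10.29 in flox/- iPSC. Klf5, a factor of naive pluripotency, was at 9.86, 11.67, 11.88 and 11.85. In Klf5 WT day 11 alone stood apart, and in Zfp42 the WT arrays were the lower ones at both stages. Dppa3 (Stella), a maternal and germline factor, was at 8.13 in WT day 11 and at 4.78, 5.21 and 4.59 on the other arrays.

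In the lists of Nodal signalling and of DNA methylation 0 genes were called by limma. In each list 1 gene was at least 2-fold higher in both genotypes, against 0.414% of all genes. Lefty2, a secreted inhibitor of Nodal, was at 8.13 and 7.58 at late DOX and 10.05 and 9.16 in iPSC, 3.36-fold higher (adjusted p = 0.951 by limma). It was that 1 of the 11 kept genes of the Nodal list. The ligand Nodal was at 8.15 and 9.87 and then 9.69 and 10.20, and Lefty1 at 7.98 and 6.44 and then 8.44 and 7.51, so for both genes the stages overlapped. The list median was 0.50, and 0.12 without WT iPSC. Among 18 genes of DNA methylation that 1 gene was Apobec2, higher in iPSC, and the median of 0.19 was -0.0059 without WT day 11 and 0.40 without flox/- day 8. Of the de novo methyltransferases, Dnmt3b was at 8.47 and 8.49 at late DOX and 8.21 and 7.48 in iPSC, and Dnmt3a at 7.73 and 7.30 and then 8.04 and 8.20.

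Most genes of 3 further lists were higher in both genotypes, by small amounts. Higher in both by any amount were also 24 of 36 germline genes, 8 of 11 Nodal pathway genes and 7 of 10 endothelial markers. Of 32 replication and mitosis genes 26 were higher in both genotypes and 0 lower in both, with a median of 0.27 (0.39 in WT and 0.16 in flox/-), and both iPSC arrays lay above both late DOX arrays for 19. E2f2, a factor of S-phase entry, was at 6.52 and 6.86 at late DOX and 7.49 and 7.46 in iPSC. Of 23 genes of the ATF4 and unfolded protein responses 18 were higher in both genotypes and 0 lower in both, with a median of 0.30 (0.26 in WT and 0.34 in flox/-), and 15 were separated in the same way. Herpud1, a part of the machinery that removes misfolded proteins from the endoplasmic reticulum, was at 9.03 and 8.92 at late DOX and 9.76 and 9.80 in iPSC. Of 20 cholesterol synthesis genes 12 were higher in both and 3 lower in both, with a median of 0.26 (0.073 in WT and 0.33 in flox/-) and 11 separated. The median of the cholesterol list was -0.037 without flox/- day 8, and that of the ATF4 list 0.54 without WT day 11. None of the genes of these 3 lists was called by limma or at least 2-fold apart in both genotypes, and their counts of higher and of separated genes stand against 30.7% and 18.1% of all genes.

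**Figure D5:**
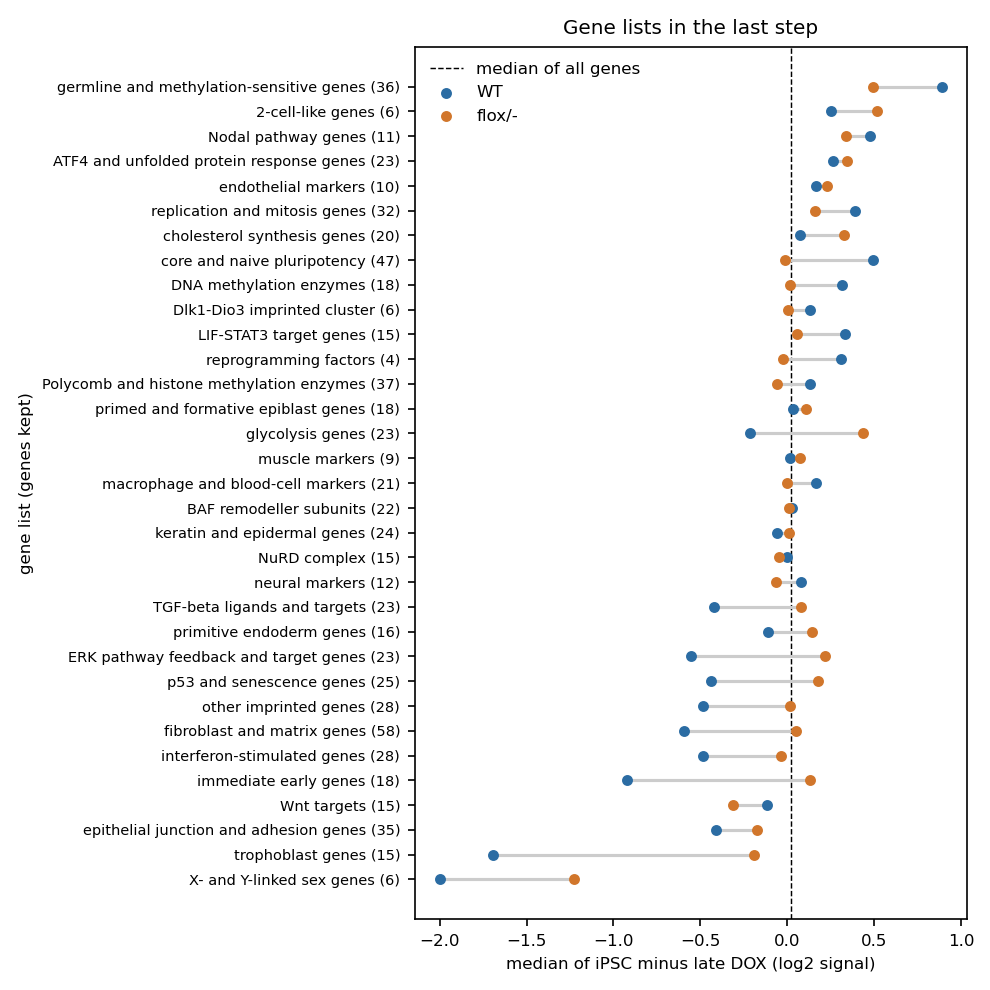
Median difference between iPSC and late DOX in log2 signal of the 33 gene lists (rows, with the number of genes kept) in WT (blue) and flox/- cells (orange), with the median of all genes, 0.02, as a dashed line. The germline list is highest in WT, with 0.89, and in flox/- cells its 0.50 is just below the 0.52 of the 2-cell-like genes. The sex-linked genes are lowest in both genotypes. The trophoblast list is next in WT, with -1.69, but in flox/- cells its -0.19 is above the -0.31 of the Wnt targets. The fibroblast and interferon lists are below 0 in WT and near 0 in flox/- cells.

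Some lists had more members 2-fold lower in the WT step than in the flox/- step. For single genes the difference between genotypes is tested further on, and for lists it was not tested. Over all genes 5.92% were at least 2-fold lower in the WT step and 0.866% in the flox/- step. Of 58 fibroblast and matrix genes 14 were at least 2-fold lower in WT iPSC and 0 higher, with a median of -0.59. In flox/- cells 2 were lower and 2 higher, with a median of 0.05, and 0 were at least 2-fold lower in both. Of 28 interferon-stimulated genes 10 were at least 2-fold lower in WT iPSC and 0 in flox/- iPSC, with medians of -0.49 and -0.04. Bst2 (tetherin), an antiviral membrane protein, was at 10.13 and 8.13 in the WT pair and 7.62 and 7.31 in the flox/- pair. Of 18 immediate early genes 8 were at least 2-fold lower in WT iPSC and 1 in flox/- iPSC. Without WT day 11 the medians over both genotypes turned from -0.22 to 0.44 in the fibroblast list, from -0.27 to 0.064 in the interferon list and from -0.33 to 0.019 in the immediate early list. The fibroblast markers moved with these lists, with a mean of 9.88 in WT day 11 and 9.18 in WT iPSC and all 7 above the median of both arrays. In flox/- cells 3 of the 7 were above the median at day 8 and 5 in iPSC. Their part in these differences was not tested.

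A set of 31 genes (0.238%) was at least 2-fold apart in opposite directions. Of these, 22 were lower in WT iPSC and higher in flox/- iPSC, and 9 were the reverse. The 22 had a median of 10.54 and 10.61 in WT and flox/- MEF, 9.80 in WT day 11, 6.73 in flox/- day 8, 8.25 in WT iPSC and 8.01 in flox/- iPSC. By these medians the set was highest in MEF and lowest in flox/- day 8, with both iPSC arrays between both late DOX arrays, an order that not every one of the 22 genes had. The choice of genes fixes part of this order. Tgfbi, a matrix protein raised by TGF-beta, was at 11.15 and 8.80 in the WT pair and 6.99 and 8.52 in the flox/- pair. Crabp1, a retinoic acid carrier, was at 12.76 and 11.16 in WT and 8.80 and 10.66 in flox/-. Serpina3n, a secreted protease inhibitor, was at 10.17 and 8.50 in WT and 5.31 and 8.60 in flox/-. These 3 were chosen after their values were seen, Serpina3n also being named by rule below. Xist was among the 9 with the reverse order.

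The difference of the step between genotypes was itself tested. Limma, here with 1 residual degree of freedom, called 0 of 13044 genes (0%) at an adjusted p under 0.05, with 442 at an unadjusted p under 0.05 and a lowest adjusted p of 0.99998. Those 442 are a smaller share of the genes than the 0.05 that such a cut passes where nothing differs. The genes with the largest difference toward flox/- were Sbspon, Ceacam2, Serpina3n, Meox2 and Angptl7, and those toward WT were Accsl, Tekt5, Mcf2, C330024D21Rik and Vmn2r-ps104. Ceacam2, a cell adhesion receptor, was at 10.15 in WT day 11 and at 5.11, 4.87 and 4.98 in flox/- day 8, WT iPSC and flox/- iPSC. Meox2, a mesoderm homeobox factor, was at 9.67 in WT day 11 and at 4.57, 5.13 and 4.76 on the others. In both genes WT day 11 alone stood high. Accsl was at 4.96 in WT day 11 and at 9.53, 8.72 and 8.58 on the others. In Accsl WT day 11 alone stood low, so for these 3 genes the difference between genotypes lay in the late DOX arrays, where day and genotype cannot be told apart.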

How the data were processed

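Per the labels' protocols, TRIzol was used by the authors to extract RNA, whose biotin-labelled product went onto Affymetrix gene arrays, 1 for each stage of a genotype. The values deposited by the authors are log2 signals of 35512 probe sets. How these were summarised and normalized is not given in the sources used here. Medians of the arrays spread over 0.122, so quantile normalization was applied. Of the probe sets, 21789 had 1 gene symbol, 1621 had several and 12102 were not listed. The last 2 kinds were left out. For 999 genes with several probe sets the one with the highest mean was taken, and genes above the median of an array on at least 1 of the 12 arrays were kept. With 1 array per genotype and stage, arrays of both genotypes stood as replicates, p-values measure the spread between these arrays, and their number limits the precision. The smallest exact two-sided p of 2 arrays against 2 is 0.333.

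Differences were tested with limma 3.58.1 in R 4.3.3 (3 residual degrees of freedom, 1 for the difference between genotypes), adjusted over all genes by Benjamini-Hochberg, with stated errors as standard errors of the fit. The fit was tested on simulated data. Genotype was a term, so arrays were paired by genotype. Whether any arrays came from the same culture is not in the labels. The members and the 33 gene lists were chosen with earlier results of these data known. Genes were named by a rule: the 12 highest and 12 lowest mean differences among genes at least 2-fold apart in both genotypes, the 4 furthest members of each list, OSKM and Mbd3, and the 5 genes furthest apart between genotypes in each direction; others, among them Dazl, Rnf17, Stra8, Sycp1, Dnmt3l, Tgfbi and Crabp1, were chosen after their values were seen. Alternatives were other normalizations, filters, probe-set rules, sets of arrays, thresholds and leaving out each array.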

Additional observations from a re-analysis of the deposited data

How the results depend on the processing

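The call of Clec2i did not hold under every setting. It passed in 6 of 17 alternatives, with adjusted p by limma from 0.0104 to 0.9991. The number of genes lower in iPSC was 0 with the arrays centred on their medians (Clec2i adjusted p = 0.0635), with the 4 arrays fitted alone (0.8745), with an intensity trend in the spread (0.073) and without any one of the 8 arrays (0 to 0, adjusted p 0.089 to 0.9991). In that fit fewer arrays are left, and without an array of the contrast the value rests mainly on the other genotype. The replicate block here was the pairing by genotype, and without it 1 gene was called, Clec2i, at adjusted p = 0.0282. The numbers of genes higher in iPSC and of genes differing between genotypes were 0 under every alternative that was run.

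At 1.5-fold, 235 genes were higher and 180 lower in both genotypes, with 1102 and 1639 in WT and 788 and 449 in flox/-. At 3-fold these counts were 11 and 20, 140 and 288, and 57 and 38. The other alternatives kept the counts at 2-fold within 1.5 times. Without the genes of chromosomes X and Y, an alternative chosen after seeing the data, 49 were higher and 41 lower in both. The BAF median was -0.0104 as deposited and 0.025 with median centring, where NuRD had -0.0117. With genes above the array median on at least 2 arrays, the medians were 0.0086 for 2-cell-like genes, 0.3434 for the Dlk1-Dio3 cluster, -0.1983 for keratins and 0.1904 for endothelial markers. Krt16 turned to 0.0114 as deposited and 0.0469 with median centring, and Utf1 to 0.0029 with median centring. The cause of these moves was not tested.

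Leaving out 1 array in turn moved the medians of 25 of 33 lists by more than the SD between both genotypes' medians. Those among the 25 whose sign turned were reprogramming factors (-0.64 to 0.66), Dlk1-Dio3 imprinted cluster (-0.0079 to 0.19), fibroblast and matrix genes (-0.94 to 0.44), keratin and epidermal genes (-0.32 to 0.19), primitive endoderm genes (-0.20 to 0.24), Polycomb and histone methylation enzymes (-0.0697 to 0.14), interferon-stimulated genes (-0.84 to 0.064), cholesterol synthesis genes (-0.037 to 0.50), BAF remodeller subunits (-0.029 to 0.083), macrophage and blood-cell markers (-0.30 to 0.45), muscle markers (-0.12 to 0.043), neural markers (-0.24 to 0.098), primed and formative epiblast genes (-0.053 to 0.14), TGF-beta ligands and targets (-0.47 to 0.085), LIF-STAT3 target genes (-0.0015 to 0.33), DNA methylation enzymes (-0.0059 to 0.40) and glycolysis genes (-0.41 to 0.45). Those that moved without turning were germline and methylation-sensitive genes (0.47 to 1.29), epithelial junction and adhesion genes (-0.90 to -0.026), NuRD complex (-0.13 to -0.017), ATF4 and unfolded protein response genes (0.24 to 0.54), 2-cell-like genes (0.26 to 0.75), Nodal pathway genes (0.12 to 0.68), endothelial markers (0.16 to 0.37) and Wnt targets (-0.38 to -0.085). Of the other 8, within that SD, the sign turned in ERK pathway (-0.48 to 0.18), p53 and senescence (-0.36 to 0.11) and immediate early genes (-0.75 to 0.019). Trophoblast (-1.70 to -0.26), core and naive pluripotency (0.056 to 0.43) and other imprinted genes (-0.33 to -0.0040) moved by over 1.5 times. X- and Y-linked sex genes (-2.07 to -1.24) and replication genes (0.19 to 0.31) moved less. Single genes whose sign turned were Accsl (-0.93 to 3.73), Angptl7 (-4.43 to 0.036), Bst2 (-2.36 to 0.049), Cdh1 (-0.19 to 0.22), Col1a1 (-0.96 to 0.85), Col1a2 (-1.26 to 0.42), Col3a1 (-0.82 to 1.07), Crabp1 (-1.71 to 1.96), Dazl (-0.31 to 2.75), Dppa3 (-3.16 to 0.056), Dppa5a (-0.34 to 0.36), Dsg3 (-0.08 to 0.18), Esrrb (-0.12 to 0.99), Hormad1 (-0.25 to 1.68) and Klf4 (-0.63 to 0.90). The others were Krt16 (-0.29 to 0.28), Meox2 (-4.51 to 0.17), Nr0b1 (-0.39 to 0.77), Pdgfra (-1.46 to 0.46), Pdgfrb (-0.47 to 0.41), Postn (-1.71 to 1.49), Pou5f1 (-0.66 to 0.82), Sbspon (-4.81 to 0.047), Serpina3n (-2.11 to 3.72), Stag3 (-0.28 to 2.12), Tekt5 (-1.49 to 1.87), Tgfbi (-1.96 to 1.14), Thy1 (-2.24 to 1.13), Utf1 (-0.89 to 0.79), Xist (-1.76 to 1.27) and Zfp42 (-0.0059 to 2.41). None of these genes passed the test. Signals near the lower quartile of the arrays, 4.68, limit how large a fold can be seen.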
